A study of Homo sapiens with 4 samples.

Results

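Genes that write, copy, read and erase methylation of DNA were examined in a map of N6-methyladenosine (m6A), the commonest internal modification of mRNA, in human embryonic stem cells. The 9 genes were TET1, TET2, TET3, UHRF1, DNMT1, DNMT3A, DNMT3B, MBD3 and MBD4. A region of the map was taken for a gene when its annotated transcript belonged to the gene, when the gene was its deposited gene name, or when it overlapped the gene body on hg38. This gave 16 of the 9900 regions, 15 of them inside the body of a member gene. The map came from wild-type H1 cells, an established embryonic stem cell line, in the primed state per the file name. There were 4 libraries of total RNA, 2 of input and 2 recovered with an m6A antibody, and no other genotype, treatment or time point entered. The deposited data were 1 set of intersected MACS2 regions with positions only. Depth, peak height and RNA levels were therefore unknown, there was no replicate error and no test was made, and the labelled cell type could not be checked against its marker genes. The lack of a region in a gene is not evidence that its RNA lacks m6A.

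Methylation of cytosine in CpG dinucleotides is placed on unmethylated DNA by DNMT3A and DNMT3B and copied to the new strand after replication by DNMT1, which UHRF1 brings to hemimethylated sites. TET1, TET2 and TET3 are dioxygenases that oxidise methylcytosine to hydroxymethylcytosine and further products, a route to its loss. MBD4 is a glycosylase with a methyl-CpG binding domain that removes mismatched thymine at CpG sites, and MBD3 is a subunit of the NuRD deacetylase and remodelling complex. Human primordial germ cells, which the study's title concerns, lose most of this methylation across their genome.

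All 3 TET genes and UHRF1 held a region centred in an exon, and none of the 3 DNMT genes, MBD3 or MBD4 did. Thus 4 of 9 genes held an exonic region (44.4%, 95% exact binomial interval 13.7 to 78.8%), where exonic means that the region's centre was in an exon, coding or not, UTRs included. Over all 20056 protein-coding genes of the RefSeq table the share was 12.8% (2569 genes). This and all later shares of protein-coding genes include any gene without RNA in these cells, since RNA levels were unknown. Any region over the gene body was found in 8 of the 9 (88.9%, interval 51.8 to 99.7%), and in 30.2% of all protein-coding genes. A region over the body with none in an exon was found in DNMT1, DNMT3A, MBD3 and MBD4, and in 17.4% of all protein-coding genes. DNMT3B was the member without any. The intervals treat the 9 genes as a random draw, but the genes were chosen with results of this map known. The intervals are therefore no test against the shares over all genes, and these counts are a description.

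**Figure D1:**
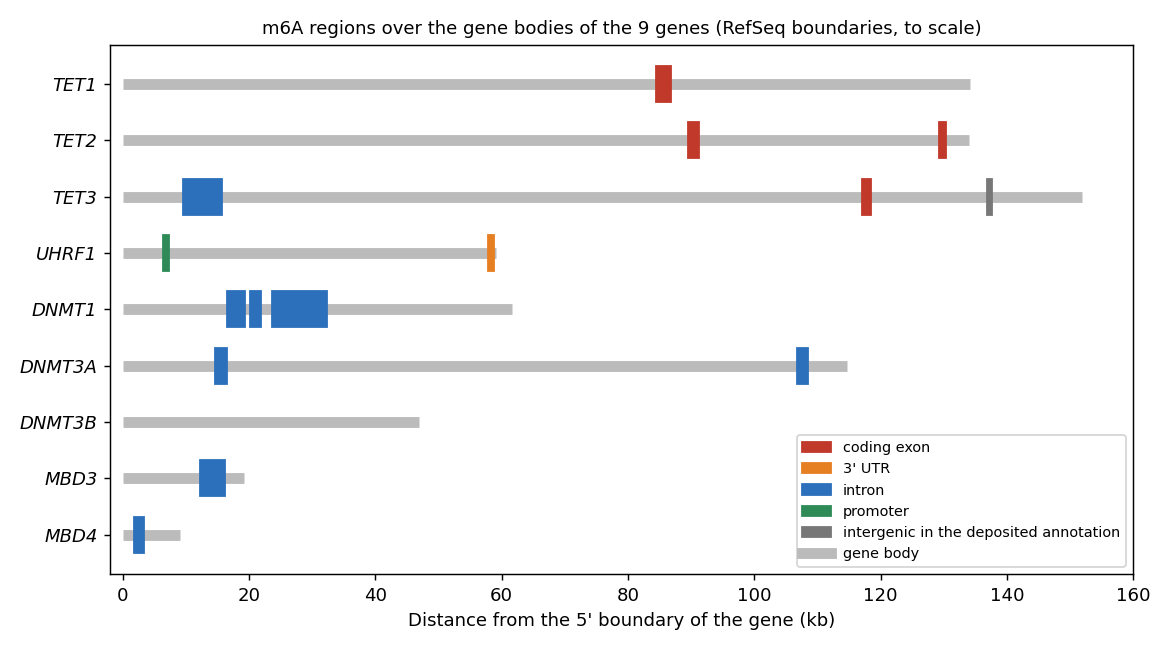
Map of the 9 gene bodies (grey, RefSeq boundaries, drawn 5' to 3' in kb from the 5' boundary) with the 15 m6A regions inside them, coloured by the deposited feature at the region's centre. Coding-exon and 3' UTR regions lie in TET1, TET2, TET3 and UHRF1, 8 regions are intronic, and DNMT3B has none.

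A UHRF1 promoter is shown because 1 of the UHRF1 regions lay over annotated start sites, inside the gene body. This region lay on chromosome 19, positions 4909512 to 4910390 (879 bp), and was annotated as promoter. It held 2 of the 3 UHRF1 start sites of the RefSeq promoter table (GRCh38.p14), at 4910144 and 4910367, and began 11 bp past the other one, at 4909501. The window of the middle start site, 250 bases before to 50 bases after it, was covered entirely and is printed 5' to 3' on the plus strand, that of the gene, with the motif GGACT, the commonest form of the m6A consensus known as DRACH, in capitals where it occurs on either strand.

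UHRF1 promoter, chr19:4909894-4910193: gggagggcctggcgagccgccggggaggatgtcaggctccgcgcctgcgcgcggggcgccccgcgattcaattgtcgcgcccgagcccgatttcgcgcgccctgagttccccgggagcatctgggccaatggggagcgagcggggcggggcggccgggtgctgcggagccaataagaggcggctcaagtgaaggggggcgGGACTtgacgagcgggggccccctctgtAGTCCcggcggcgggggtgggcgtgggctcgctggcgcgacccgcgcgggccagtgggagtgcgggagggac

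The window was 76% G and C and held 40 CpG dinucleotides, against medians of 62.3% and 21 over 22199 promoter windows of protein-coding genes. It held the motif once on the gene's strand and once on the other, where it reads AGTCC. Both matches lay past the start site at 4909501 but before those at 4910144 and 4910367. RNA begun at 4910144 or 4910367 would therefore not contain them. Of all such windows, 25.8% held the motif on the gene's strand and 26.2% on the other. A match describes the letters only and is not a measured site. The region also lay within ARRDC5, a protein-coding neighbour whose body spans positions 4890437 to 4916820, and the deposited regions carry no usable strand. An annotated start site inside a region was found for 1 of the 9 genes and for 2.91% of protein-coding genes (583 of 20056). Only 15843 of the 20056 were in the promoter table, as all 9 members were, and the rest count as having none.

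The second UHRF1 region lay at the other end of the gene. It covered positions 4960836 to 4961833 (998 bp) in the 3' UTR, exon 16 of 16 of NM_013282, with its centre 820 bp from the 3' boundary of the gene (positions 4903080 to 4962154). The deposited gene name of this region was KDM4B, whose start site was nearest, at a deposited distance of -7779 bp from the centre. UHRF1, the reader of hemimethylated DNA, thus held regions at its start sites and at its 3' end, 50445 bp apart, with no other region between them.

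TET1, an eraser of DNA methylation with a part in pluripotent cells, held 1 region. It spanned chromosome 10, positions 68644779 to 68647190 (2412 bp), centred in exon 4 of 12 of NM_030625. Of the members' coding-exon regions, it was the only 1 outside the last exon of the transcript named in its annotation. Its width exceeded that of 86.7% of all coding-exon regions. The centre was 85647 bp from the 5' boundary of the 134151 bp gene, 63.8% of the way along it. The nearest start site was that of CCAR1, at a deposited distance of -75255 bp, so that the deposited gene name was CCAR1, although the annotated transcript was TET1.

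TET2, a dioxygenase often mutated in blood cancers, was the 1 member with 2 exonic regions, a count that 1.22% of protein-coding genes reached. The first covered chromosome 4, positions 105235310 to 105237163 (1854 bp), in exon 3 of 3 of the short transcript NM_017628. The second covered positions 105275184 to 105276278 (1095 bp), in exon 11 of 11 of NM_001127208, with its centre 4072 bp from the 3' boundary. They were 38020 bp apart, and no intronic region lay in the 133929 bp of TET2. Both lay wholly within TET2-AS1, an antisense RNA gene on the minus strand (positions 105171354 to 105352881), and the second had that gene as its deposited name. Without strand, signal from TET2 and TET2-AS1 cannot be told apart.

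TET3, the dioxygenase known for its part in the fertilised egg, held 3 regions of different kinds. An intronic region lay on chromosome 2 from 73993122 to 73999363 (6242 bp), in intron 2 of 11 of NM_001287491, between the start sites at 73984910 and 74002692. A coding-exon region of 1343 bp lay at positions 74100703 to 74102045, in exon 11 of 11 of NM_001366022. The last, of 833 bp at positions 74120463 to 74121295, was intergenic in the deposited annotation but lay inside the RefSeq gene, with its centre 14619 bp from the 3' boundary at 74135498. Of its bases, 777 overlapped FNBP1P1, a pseudogene, and the sources used here do not say how reads with several alignments were counted. Of the 1315 regions annotated as intergenic, 15.7% overlapped a protein-coding gene body of the RefSeq table, so the case was not rare. The coding-exon and the intergenic region both had BOLA3 as their deposited gene name.

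The TET2 and TET3 regions placed 3 of the 4 coding-exon regions in the last exon of the annotated transcript. The first TET2 region counts here only through the short transcript NM_017628, with its centre 43567 bp from the 3' boundary of TET2. Among all 1761 coding-exon regions in transcripts of more than 1 exon, 57.2% were in the last exon. Along the gene body, the 5 exonic regions of the members were centred at 63.8% (TET1), 67.5% and 97.0% (TET2), 77.5% (TET3) and 98.6% (UHRF1) of the way from the 5' to the 3' boundary. All 5 were thus in the later part of their gene, and the second TET2 region and that of UHRF1 were closest to the 3' end. Over 2322 exonic regions of 2109 protein-coding genes with a known strand, the median position was 82.7% (quartiles 51.7 and 94.9%), and 24% lay before the middle. The TET1 region, the first TET2 region and the TET3 region were farther from the 3' boundary, by this share of the gene, than most, past 31.9%, 35.0% and 43.6% of these regions. Positions count introns as well as exons, and distance to the stop codon was not analysed here.

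**Figure D2:**
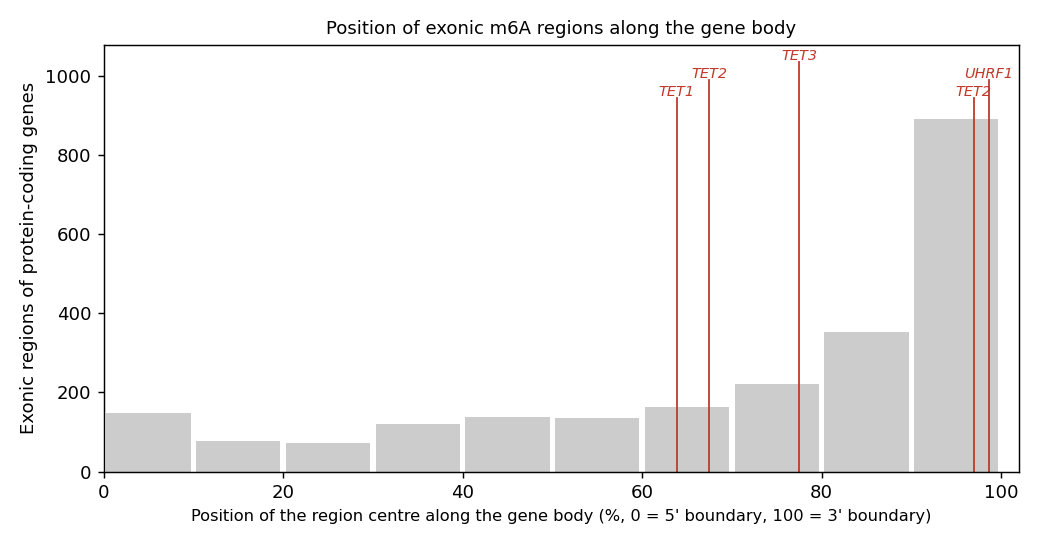
Histogram of the position of 2322 exonic m6A regions along the gene body of protein-coding genes, in 10 equal bins from the 5' boundary (0%) to the 3' boundary (100%), with the 5 exonic regions of TET1, TET2, TET3 and UHRF1 as red lines. The last bin holds 893 regions, among them 1 of the TET2 regions and that of UHRF1.

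DNMT1, the maintenance methyltransferase, held 3 intronic regions side by side. On chromosome 19 they covered positions 10175557 to 10178450 (2894 bp, intron 5 of 39 of NM_001379), 10173123 to 10174833 (1711 bp, intron 6) and 10162679 to 10171387 (8709 bp, intron 9). The gene runs on the minus strand from 10194953 to 10133346, so the order given is 5' to 3'. The gaps between them were 723 and 1735 bp, where the smallest gap between any neighbouring regions was 709 bp, the median 84471 bp, and 5.92% were under 2000 bp. The regions filled 84.4% of a stretch of 15772 bp. A stretch of that length or less held 3 regions in 115 protein-coding genes (0.573%), a bound set by DNMT1 itself. The widest was wider than 83.4% of intronic regions. The centre of the region in intron 5 was in an L1MC5 element, a LINE repeat.

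Together the DNMT1 regions covered 13314 bp, 21.6% of the 61608 bp gene, the largest covered share of the 9 genes. Among the 6057 protein-coding genes with a region, the median covered share was 7.05%, and DNMT1 was above 77.3% of them. At least 3 regions over the body were found in DNMT1 and TET3, 2 of the 9 genes, and in 3.16% of protein-coding genes. At least 2 were found in 5 of the 9 (TET2, TET3, UHRF1, DNMT1 and DNMT3A) and in 9.09% of protein-coding genes. Longer genes more often held several regions. In the gene body length groups described below, at least 2 were found in 20.0% of genes in that of TET2, TET3 and DNMT3A. In the group of UHRF1 and DNMT1 the share was 12.3%. At least 3 were found in 7.73% of the group of TET3 and in 4.09% of that of DNMT1.

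DNMT3A, a methyltransferase for unmethylated DNA, held 2 intronic regions near opposite ends of its gene (chromosome 2, minus strand, positions 25227874 to 25342590). The region nearer the 5' end, at 25326143 to 25327952 (1810 bp), was in intron 1 of 23 of NR_135490, with its centre in an LTR41 element, an endogenous retrovirus repeat. The region nearer the 3' end, at 25234149 to 25235814 (1666 bp), was in intron 23 of 23 of the same non-coding transcript. The first was given the name MIR1301, a microRNA gene whose start site was 1674 bp from the centre. None of the 6 DNMT3A start sites lay inside a region, and the nearest region edge to any of them was 13973 bp away.

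One more region had DNMT3A as its deposited name only through the nearest start site. It covered positions 25413478 to 25414322 (845 bp), 70887 bp outside DNMT3A, in the 3' UTR of DTNB, exon 16 of 16 of NM_001351389. It was therefore not counted as a region inside DNMT3A.

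DNMT3B, its paralog with a known high level in human embryonic stem cells, had no region over its 46972 bp body (chromosome 20, positions 32762385 to 32809356). The nearest region, 5389 bp wide and centred in intron 5 of 6 of MAPRE1, began 30439 bp away. Protein-coding genes were put into 10 groups by gene body length, from the shortest (1) to the longest (10). Most genes of this size had no region, since 35.1% of the 2005 genes in the same length group held any region and 14.3% an exonic one. By length alone, the empty DNMT3B body was thus the commoner outcome. Genes of this length with RNA in these cells could not be picked out, so DNMT3B was not compared with them.

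MBD3 held a single intronic region on chromosome 19 (positions 1576712 to 1580669, 3958 bp), in intron 5 of 6 of NM_001281454. It covered 20.5% of the 19270 bp gene and was wider than 68.3% of intronic regions. Its deposited name was MEX3D, the neighbouring gene, which held a region of 12382 bp that came within 5891 bp of MBD3.

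The MBD4 region was 1560 bp wide. It lay on chromosome 3 between positions 129436590 and 129438149, in intron 2 of 6 of NM_001276271, with its centre 2579 bp from the start site at 129439948. It covered 17.3% of the 9002 bp gene. The MBD3 and MBD4 bodies were shorter than the median protein-coding gene body (24092.5 bp), and 1 region covered a large share of each. They were in length groups 5 and 3, where 26.9% and 19.6% of genes held a region. A feature was read at the centre of a region only, and exon boundaries were not used here, so parts of these intronic regions may lie over exons.

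Gene body length moved with these counts. TET1, TET2, TET3 and DNMT3A were in length group 9 (83436 to 151983 bp), where 46.3% held a region and 17.6% an exonic one. UHRF1 and DNMT1 were in group 8, with 37% and 13.3%. Across the 10 groups, the share of genes with any region rose with length more than the share with an exonic region did. The part of gene length in the members' counts was not tested.

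**Figure D3:**
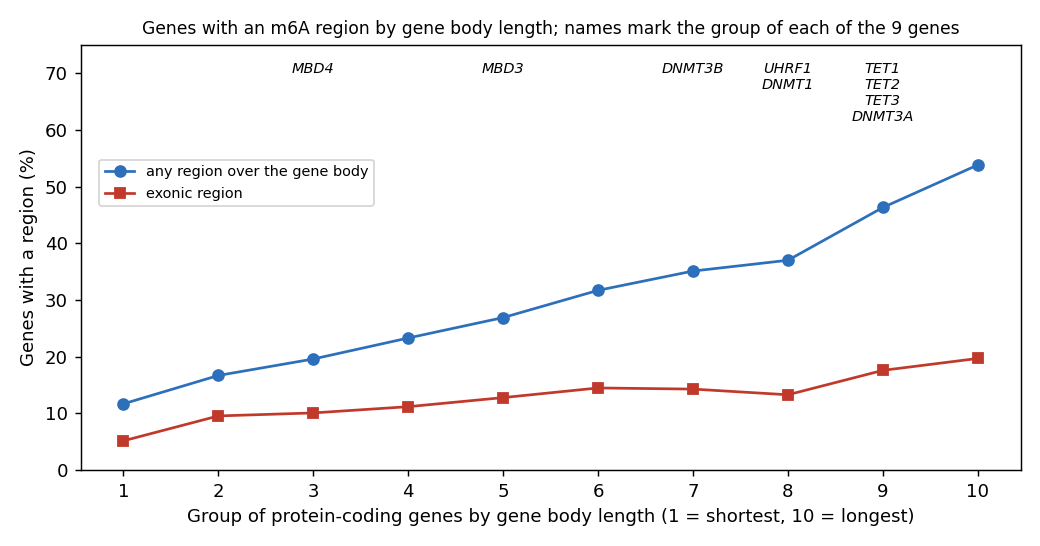
Share of protein-coding genes (%) with any m6A region over the gene body (blue) and with an exonic region (red), in 10 groups by gene body length from the shortest (1) to the longest (10). Names mark the group of each of the 9 genes, and the blue line runs from 11.7% to 53.8% and the red line from 5.18% to 19.7%.

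In width, the exonic regions of the members had a lower median than their intronic ones, as did those of all genes. The 15 regions inside member genes had a median width of 1711 bp (range 833 to 8709 bp), against 1527 bp for all 9900. The 5 exonic ones ran from 998 to 2412 bp with a median of 1343 bp, and all 3061 exonic regions had a median of 1293 bp. The 8 intronic ones ran from 1560 to 8709 bp with a median of 2352 bp, and all 4967 intronic regions had a median of 2102 bp (quartiles 1193 and 5526 bp). The TET1 region and the first TET2 region (1854 bp) were within the range of the intronic ones. Of the 8 intronic centres 2 were in a repeat, those of DNMT1 and DNMT3A, against 54.7% of all intronic centres.

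**Figure D4:**
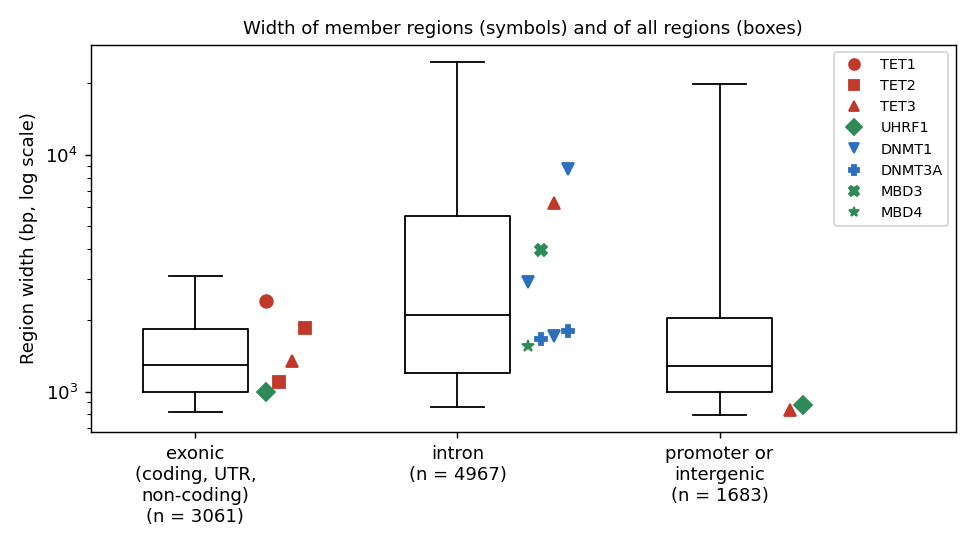
Width in bp (log scale) of the 15 m6A regions inside member genes (symbols, red for TET, blue for DNMT, green for UHRF1 and MBD genes) beside all regions of the same feature (boxes: median and quartiles, whiskers: 5th and 95th percentiles). Member regions lie within the whiskers of their class, and the 2 in the promoter or intergenic class are near its lower end.

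The deposited gene names, which follow the nearest start site, missed much of this. Of the 15 regions inside member genes, 8 carried the name of that gene and 7 another. Of the 5 exonic ones, 1 did, the first TET2 region. Over all 2841 exonic regions of protein-coding genes, 58.6% carried the name of the gene of their transcript. TET1 and MBD3 would have no region by name.

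Other genes of the DNA methylation system, in 5 groups by role, held exonic regions in 11 of 43 cases (25.6%) and any region over the body in 16 (37.2%), set against 12.8% and 30.2% of protein-coding genes. Of 8 other genes that read methylated DNA or are named for a methyl-CpG binding domain, 4 held an exonic region. ZBTB33 (Kaiso) held 1 of 1817 bp in exon 3 of 3, ZBTB4 1 of 937 bp in exon 4 of 4, and ZBTB38 2 of 1222 and 1367 bp, both in exon 8 of 8. These 3 are zinc finger proteins that bind methylated CpG, and their regions were all in last exons. MBD5, named for its methyl-CpG binding domain, held 7 regions in its 496045 bp body, 2 of them in coding exons 9 and 12 of 15 and 5 in introns. MBD1, MBD2 and MBD6, with shorter bodies of 14883, 73064 and 10831 bp, held none, so the MBD genes ranged from no region to 7.

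Of 11 genes of demethylation and repair, 4 held an exonic region. SMUG1, a uracil glycosylase, held 1 in exon 5 of 5, and OGT, the O-GlcNAc transferase that binds TET proteins, 1 in exon 21 of 22. CXXC4, which binds TET2, held 1 in exon 2 of 3, and the stress gene GADD45B 1 in exon 3 of 4. The GADD45B region was 2036 bp, against 2131 bp for the whole gene. APEX1, NEIL1 and PARP1 were among those without a region.

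Of 8 genes grouped as cofactors of methylation 1 held an exonic region, QSER1. The group name does not describe QSER1, a protein that with TET1 keeps regulatory DNA free of methylation. Its region was 1077 bp in exon 4 of 13, between 2 intronic ones. CDCA7, DNMT3L and DPPA3 held none. Of 11 NuRD partners of MBD3, 2 did, GATAD2A in the 3' UTR (823 bp) and RBBP7 in the 5' UTR of exon 1 of 12 (1046 bp), and CHD3, HDAC1 and HDAC2 had no region. None of the 5 methyl donor genes, AHCY, MAT2A and MAT2B among them, held any region over its body. The groups hold between 5 and 11 genes, and none was tested against another.

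**Figure D5:**
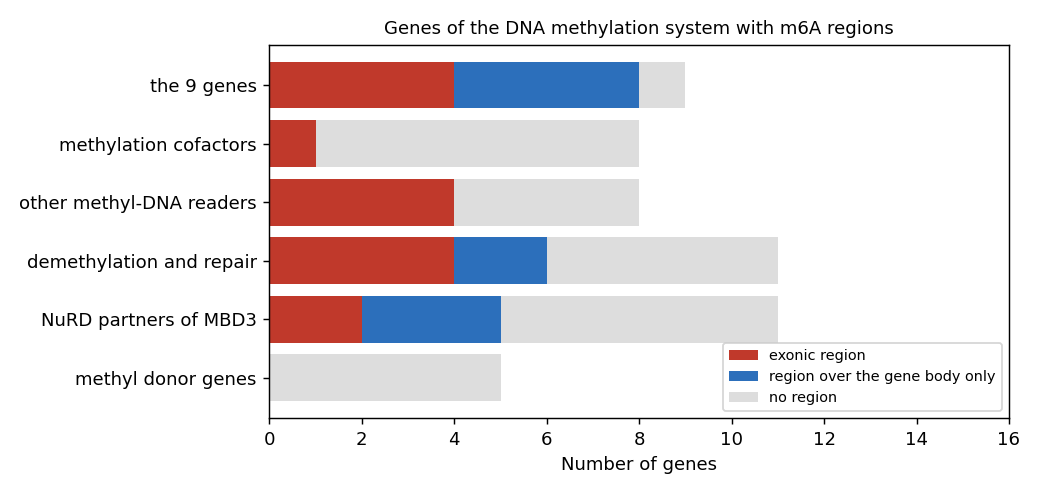
Number of genes with an exonic m6A region (red), with a region over the gene body but none in an exon (blue) and with no region (grey), for the 9 genes and for 5 groups of related genes. Red counts are 4 of 9 in the top bar and 1 of 8, 4 of 8, 4 of 11, 2 of 11 and 0 of 5 in the groups below it.

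Genes with the same counts of exonic and other regions and the nearest gene body length, as the measure of likeness in this 1 map, were LYN and CPAMD8 for TET1 and GRM4 and MYO9B for TET2. They were DLG5 and LRGUK for TET3, ZNF721 and LATS1 for UHRF1, ZC3H18 and NSUN7 for DNMT1 and CAPS2 and FAM120A for DNMT3A. TET2 shared its counts with 140 other genes, TET3 with 144, DNMT1 with 153, UHRF1 with 444, DNMT3A with 603 and TET1 with 1635. For DNMT3B they were NAPB and POTEJ among 13997 genes without a region, for MBD3 MZT1 and ISOC1, and for MBD4 ZIC5 and CDC42EP1, among 2597 genes with 1 region outside exons. The patterns of TET2, TET3 and DNMT1 were thus the least common of the 9 and that of DNMT3B the commonest.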

How the data were processed

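m6A-seq of wild-type H1 cells gave 4 libraries, grouped by sample title as input or pull-down; whether replicates were separate cultures is not stated. Per the submitters' processing notes, reads were handled with HISAT2 2.2.1, Trim Galore 0.6.7, MACS2 2.2.7.1, HOMER, SAMtools 1.6 and bedtools 2.30.0, on hg38. Settings and order are not given in these notes. The authors deposited positions of 9900 intersected regions and a HOMER annotation of them, in base pairs; its score was 0 and its strand the same in every line, per the file.

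Transcripts were matched to a RefSeq table of GRCh38.p14 (8523 of 8585 annotated regions, 99.3%), and strand and start sites came from its promoter table (79% of protein-coding genes). Counts were made with Python 3.11.15 and pandas 2.3.3; the overlap step was tested on simulated data (200 of 200 placed regions recovered over 19126 genes). The members and the lists of related genes were chosen with earlier results of these data known. A gene of these lists is not reported here. Members are all named; related genes are named if they held an exonic region, or, up to 3 per group in alphabetical order, if they held none. CCAR1, BOLA3, KDM4B, MIR1301, TET2-AS1, FNBP1P1, ARRDC5, MEX3D, MAPRE1 and DTNB were named after their values were seen. Intervals are 95% Clopper-Pearson intervals. Alternatives were region width, naming by the nearest start site, the overlap counted and the features taken as exonic.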

Additional observations from a re-analysis of the deposited data

How the results depend on the processing

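Of 52 values recomputed under 8 alternatives, 41 stayed within 1.5 times the main count or within its interval and 11 moved. Some of the 41 could not move: the 15 regions inside member genes were 833 to 8709 bp wide, each wholly inside its gene. Limits of at least 500 bp, at most 100 kb or at least 50% inside thus left every member value as it was. The 41 also include counts of genes with an exonic region under nearest-start-site naming, which took any feature (6 members, 14 related genes). Naming by the nearest start site gave 9 member regions in place of 16, in 6 members, and 2 of the 9 were centred in exons, against 5. Of these 2, the region named DNMT3A was in the 3' UTR of DTNB, outside DNMT3A. Counting regions of any feature by that name, 25.65% of protein-coding genes had one. With regions up to 2000 bp, these shares were 10.41% (exonic) and 20.85% (any), and TET1 and MBD3 held no region. DNMT1 then held 1 region in place of 3. The exonic share was 14.39% with transcript ends and promoters and 12.06% without non-coding exons. The share with any region was 28.51% for at least 50% of the region inside the gene, 31.44% with 1000 bp added and 29.4% without regions over 100 kb. Members with an exonic region numbered 3 or 4 under the other alternatives, and members with any region 6 to 8 under all those run. No paired analysis was possible because the deposited set holds no value per library, so no replicate could be left out either. Stricter peaks by caller score were not run because the score was 0 in every line. Settings on exonic features do not apply to gene bodies, nor the added 1000 bp to exons.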
